A study of Homo sapiens with 5 samples.

Results

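MALAT1 and NEAT1 are long noncoding RNAs that stay in the nucleus, and their listed regions were described here across 5 CLIP-Seq libraries of HEK-293, an established human line of embryonic kidney origin. The regions were every entry of the 5 deposited lists whose same-strand gene name includes MALAT1 or NEAT1. There were 22 of 3147 listed regions, 16 on MALAT1 and 6 on NEAT1. CLIP-Seq uses ultraviolet light to bond RNA to the proteins that touch it, digests the unprotected RNA, purifies a chosen protein and reads the fragments that come along. The fusion under study, GFP-(GR)50, carries 50 glycine-arginine repeats and models poly-GR, which is translated from the C9ORF72 repeat expansion of ALS and FTD.

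Experiment 1 held GFP-(GR)50 replicate 1 and a library from cells transfected with GFP alone, both lysates digested with 0.04 units/ml of RNase I. In experiment 2 were GFP-(GR)50 replicate 2, a library of GFP-(GP)10, which carries 10 glycine-proline repeats, and a library of untransfected cells, at 0.02 units/ml. The experiment of each GFP-(GR)50 library was read from the number in its title and the numbered libraries of the protocol, and the comparisons and RNase amounts rest on that reading. Cells were crosslinked with 100 mJ/cm2 at 254 nm. The fusions were introduced by lipofection, so they were expressed in addition to the cells' own proteins. All libraries, the untransfected one included, were pulled down on GFP-binding beads and taken from the same gel region. Each control was 1 library and the GFP-(GR)50 libraries came from different experiments, so every test compares the reads of single libraries and not the conditions.

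MALAT1 is one of the most abundant nuclear RNAs and gathers in nuclear speckles, bodies rich in splicing factors. Its 3′ end is made by RNase P, which releases a small tRNA-like RNA, mascRNA, and leaves a triple helix that protects the end of MALAT1. NEAT1 is the scaffold RNA of paraspeckles, bodies that hold RNA-binding proteins such as NONO and SFPQ. It is made as a short and a long isoform that share their 5′ end, and the long isoform is the one that builds paraspeckles. Both genes lie on chromosome 11 on the plus strand. The RefSeq span of NEAT1 runs from 65422798 to 65445540 and that of MALAT1 from 65497738 to 65506516 (GRCh38.p14, whose patches leave the chromosome sequence of the files' hg38 unchanged), with 52198 bp from the end of the former to the start of the latter.

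Uniquely mapping reads listed outside ribosomal RNA (rRNA) numbered 226 in GFP-(GR)50 replicate 1 and 4802 in replicate 2, against 5797 for GFP, 8363 for untransfected cells and 1451 for GFP-(GP)10. These listed reads, not the sequencing depth, are the denominator of the shares below. Each list holds only regions of at least 5 reads after the authors added scaled multimapping reads, so an RNA missing from a list may still have had reads. Intervals are exact Clopper-Pearson 95% intervals and cover counting error only.

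MALAT1 had listed regions in 4 of the 5 libraries and NEAT1 in 2. MALAT1 had 3 regions in GFP, 6 in untransfected cells, 1 in GFP-(GP)10, 6 in GFP-(GR)50 replicate 2 and none in GFP-(GR)50 replicate 1. NEAT1 had 3 regions in untransfected cells and 3 in GFP-(GR)50 replicate 2, and none in the other lists. No region lay between the genes, and none lay on the opposite strand of either, where the antisense RNA TALAM1 is annotated across MALAT1.

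The uniquely mapping reads on MALAT1 numbered 56 in GFP-(GR)50 replicate 2, 13 in GFP-(GP)10, 49 in untransfected cells and, in experiment 1, 21 in GFP. As a share of uniquely mapping reads outside rRNA, MALAT1 took 1.17% (0.882 to 1.51) in GFP-(GR)50 replicate 2, 0.896% (0.478 to 1.53) in GFP-(GP)10, 0.586% (0.434 to 0.774) in the untransfected library and 0.362% (0.224 to 0.553) in GFP. In that order each library's interval overlapped that of its neighbour. The interval of GFP-(GR)50 replicate 2 lay above those of untransfected cells and GFP, the latter from the other experiment. NEAT1 had 50 reads in untransfected cells, 0.598% (0.444 to 0.787), and 19 in GFP-(GR)50 replicate 2, 0.396% (0.238 to 0.617). For NEAT1 the library order was the opposite, and the intervals overlapped.

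**Figure D1:**
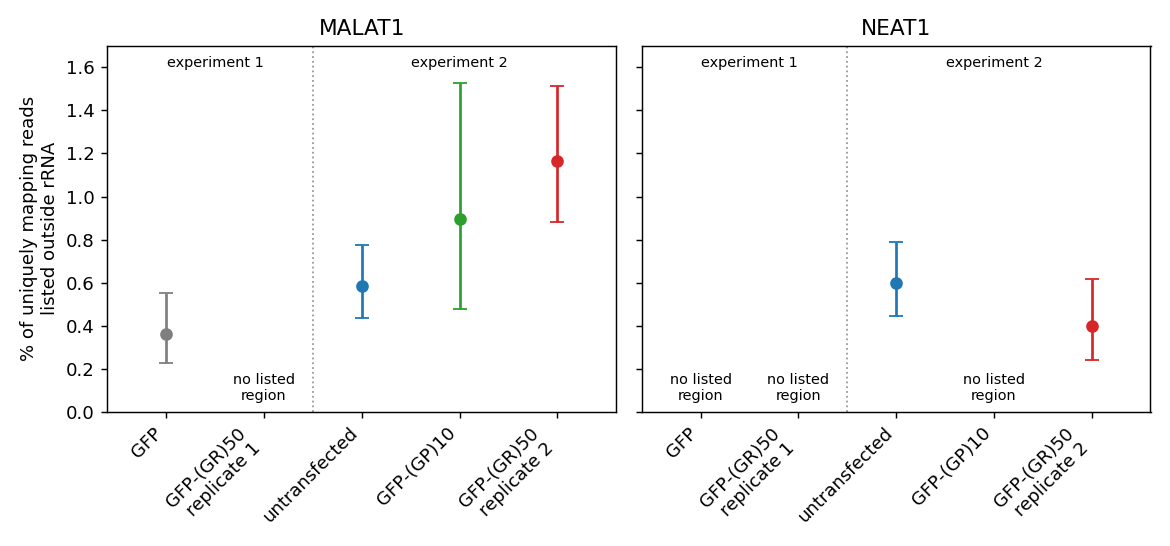
Share of uniquely mapping reads listed outside rRNA (y axis, %) that lay on MALAT1 (left) and NEAT1 (right) in each library (x axis); points are single libraries and bars are exact 95% intervals of counting error. MALAT1 ran from 0.362% in GFP to 1.17% in GFP-(GR)50 replicate 2, while NEAT1 was listed in 2 libraries only.

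The reads on both RNAs were almost all unique, unlike the read totals of the lists around them. On MALAT1, uniquely mapping reads made up 91.6% of the scaled reads in the GFP list, 99.7% with GFP-(GR)50 replicate 2 and 100% in the other lists. On NEAT1 the value was 100% in both lists. Over all regions outside rRNA it was 14.7% in GFP-(GR)50 replicate 2, 45.8% for GFP-(GP)10, 52.6% for GFP and 65.6% for untransfected cells. Shares of scaled reads therefore moved with how many multimapping reads a list held: MALAT1 took 0.384% of the scaled reads outside rRNA in untransfected cells and 0.172% of those in GFP-(GR)50 replicate 2. Median unique and scaled reads per region outside rRNA were 5 and 6.02 in GFP-(GR)50 replicate 2 and 5 and 6 for GFP-(GP)10. They were 6 and 6.43 for untransfected cells and 4 and 11.3 for GFP. Except in GFP these medians lay close together, so mostly unique reads do not set the 2 RNAs apart from a typical region.

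Experiment 2 allows the comparison of poly-GR with cells that express no fusion. MALAT1 was higher in GFP-(GR)50 replicate 2 than in untransfected cells and NEAT1 did not pass the test. The odds ratio of MALAT1 was 2.00 (1.36 to 2.94), with an adjusted exact p of 0.00477 (two-sided Fisher's exact test, Benjamini-Hochberg over 1049 genes listed in either library). That of NEAT1 was 0.660 (0.389 to 1.12), with an adjusted exact p of 0.189. Over the same genes 32.9% were called higher and 6.67% lower, but most of these were listed in 1 library and entered at 0 in the other. With all listed reads as denominator, rRNA included, MALAT1 took 0.607% against 0.569% and the call was lost (adjusted exact p = 0.792), while NEAT1, at 0.206% against 0.581%, passed as lower (adjusted exact p = 0.00111), as did 53.3% of genes. With scaled reads MALAT1 was called lower (adjusted exact p = 0.000215), as were 61% of genes.

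Among the 97 genes listed in both of these libraries, 14.4% were called, 13.4% as higher and 1.03% as lower. Of these genes 63 had an odds ratio above 1, with a median log2 odds ratio of 0.39. On that log2 odds ratio scale MALAT1 stood at 1.00, in place 35 of the 97 from the top, and NEAT1 at -0.60, in place 84. MALAT1 passed within these genes too (adjusted exact p = 0.00425) and NEAT1 did not (adjusted exact p = 0.449). The higher MALAT1 share was thus within the range of the other genes listed in both libraries. The minimum of 5 reads is a larger share of the 4802 reads of GFP-(GR)50 replicate 2 than of the 8363 of untransfected cells. The lean of these genes towards GFP-(GR)50 replicate 2, and places among them, cannot be told apart from that minimum.

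**Figure D2:**
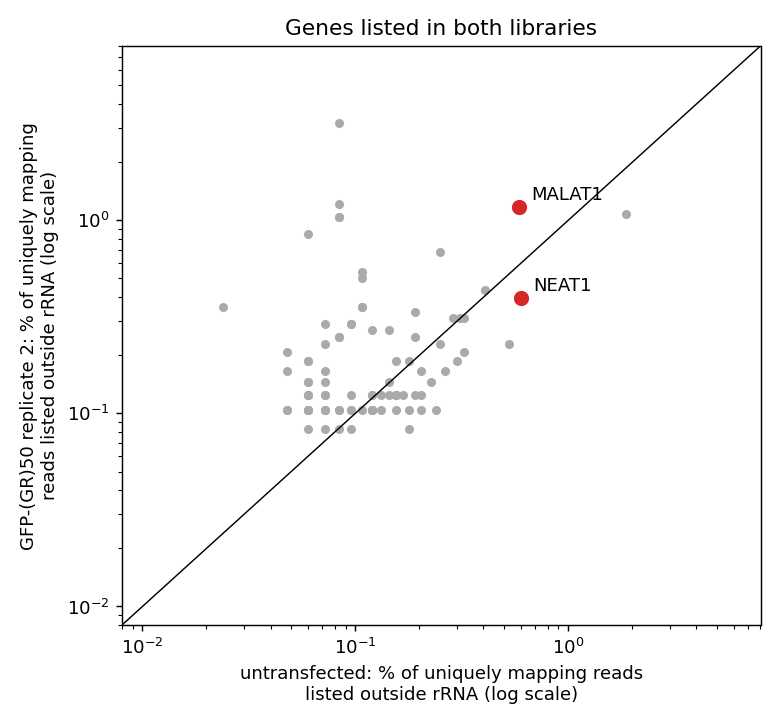
Share of uniquely mapping reads outside rRNA in untransfected cells (x axis, %, log scale) and in GFP-(GR)50 replicate 2 (y axis, %, log scale) for genes listed in both; the line marks equal shares, and of 97 genes 93 are drawn and 4 with a 0 are not. MALAT1 lies above the line at 0.586% and 1.17%, and NEAT1 lies below it at 0.598% and 0.396%.

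The pair can also be set against each other within a library, which needs no library total but still depends on the minimum per region. Untransfected cells had 49 reads on MALAT1 and 50 on NEAT1, so MALAT1 made up 49.5% (39.3 to 59.7) of the reads on the pair. GFP-(GR)50 replicate 2 had 56 and 19, so MALAT1 made up 74.7% (63.3 to 84.0). The intervals did not overlap, and the odds ratio between the libraries was 3.01 (1.57 to 5.78). This contrast was chosen after the values were seen and has no test. With only regions of at least 10 scaled reads, MALAT1 and NEAT1 had 17 and 43 reads in untransfected cells. GFP-(GR)50 replicate 2 then had 38 and 0, so the size of the contrast moved with the minimum. Per kb of RefSeq span, MALAT1 had 5.58 reads and NEAT1 2.20 in untransfected cells, and 6.38 and 0.835 in GFP-(GR)50 replicate 2. Per kb of listed region the RNAs differed little, at 65.5 and 64.4 reads per kb in untransfected cells and 55.4 and 52.6 in GFP-(GR)50 replicate 2. The gap per span thus went with the share of each gene that was listed, which was 8.52% of MALAT1 and 3.42% of NEAT1 in untransfected cells, and 11.5% and 1.59% in GFP-(GR)50 replicate 2.

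The second comparison of experiment 2 sets poly-GR beside poly-GP, another dipeptide-repeat protein of the C9ORF72 repeat, here with fewer repeats. MALAT1 took 1.17% in GFP-(GR)50 replicate 2 and 0.896% in GFP-(GP)10, an odds ratio of 1.31 (0.712 to 2.39) that did not pass (adjusted exact p = 0.630, Fisher's exact test over 561 genes, of which 3.57% were called higher and 22.5% lower). With scaled reads MALAT1 was called lower (adjusted exact p = 0.0314), as were 26.8% of genes. The interval of the unique reads holds values on both sides of 1, so these reads do not settle whether the shares were equal. Among the 49 genes listed in both libraries the median log2 odds ratio was -1.56 and 5 were above 0, with MALAT1 in place 4 from the top at 0.38. The same limit holds for this ranking, since the minimum of 5 reads is a larger share of the 1451 reads of GFP-(GP)10. NEAT1 had 19 reads in GFP-(GR)50 replicate 2 and no listed region in GFP-(GP)10. Entered at 0 it passed as higher (adjusted exact p = 0.0448), and entered at 4 reads, just under the minimum of the lists, it did not (adjusted exact p = 0.691), where 0.855% of genes were called higher. Scaled by unique reads outside rRNA to the total of GFP-(GP)10, the 3 NEAT1 regions of GFP-(GR)50 replicate 2 would hold 1.51, 2.42 and 1.81 reads, each under the minimum of 5, and fewer by each other total, so the missing listing does not show a lower level.

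Between the 2 controls of experiment 2, MALAT1 did not pass the test. Its odds ratio in GFP-(GP)10 against untransfected cells was 1.53 (0.830 to 2.83; adjusted exact p = 0.951, Fisher's exact test over 798 genes, of which 15.2% were called higher and 0.125% lower). In the 53 genes listed in both libraries the median log2 odds ratio was 1.85 and 52 were above 0, with MALAT1 in place 44 at 0.62. This ranking too depends on the minimum per region, which is a larger share of the smaller total, that of GFP-(GP)10. NEAT1, at 50 reads in untransfected cells, was the 1 gene called lower in GFP-(GP)10 when entered at 0 (adjusted exact p = 0.00342). Entered at 4 reads NEAT1 did not pass (adjusted exact p = 0.193), and there all 134 called genes, 16.4% of those tested, were higher. The NEAT1 regions of untransfected cells scale to 1.21, 2.95 and 4.51 reads at the total of unique reads outside rRNA of GFP-(GP)10, all under the minimum. By scaled reads outside rRNA the last would reach 6.46, and by all scaled reads the last 2 would reach 5.64 and 8.62.

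In experiment 1 the outcome for MALAT1 depended on the reads it was set against. MALAT1 had 21 reads in GFP, and at the same share GFP-(GR)50 replicate 1, with its 226 reads outside rRNA, would hold 0.819 reads in all. The 3 GFP regions scale to 0.390, 0.195 and 0.234 reads there. They scale to between 1.29 and 2.57 reads by all unique reads, under the minimum of 5, and to between 11.1 and 20.2 by all scaled reads, above it. The test gave an adjusted exact p of 1 over 211 genes (16.6% called higher and 4.74% lower), and with unlisted genes entered at 4 reads MALAT1 passed as higher (adjusted exact p = 0.0164), as did 84.6% of genes. With all listed reads as denominator MALAT1 passed as lower (adjusted exact p = 0.0400), as did 21.3% of genes, where 226 of the 1603 reads of replicate 1 lay outside rRNA. The difference of the MALAT1 odds ratio between the experiments did not pass an exact test of homogeneity, with adjusted p = 0.765 against untransfected cells and adjusted p = 1 against GFP-(GP)10. With no listed MALAT1 read among the 226 of replicate 1, and 0.819 at the GFP share, this test could hardly find a difference. It does not show that the experiments were alike. NEAT1 was listed in neither library of experiment 1 and could not be compared there.

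Along MALAT1, the listed regions lay in the body of the transcript and reached neither end. The first listed base was 2589 bp from the RefSeq start and the last was 7644 bp from it, in a span of 8779 bp. The last region ended 735 bp before mascRNA (chromosome 11, 65506117 to 65506174), so no listed region covered mascRNA. Over all libraries the regions covered 2014 bp, or 22.9% of the span, of which 1704 bp were listed in 1 library, 193 bp in 2 and 117 bp in 3. Their widths ran from 45 to 358 bp, and their uniquely mapping reads from 5 to 17. None carried a repeat annotation on either strand. The deposited annotation gives 7 of the 16 regions an exon alone, 8 both an exon and an intron, and 1 an intron alone.

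**Figure D3:**
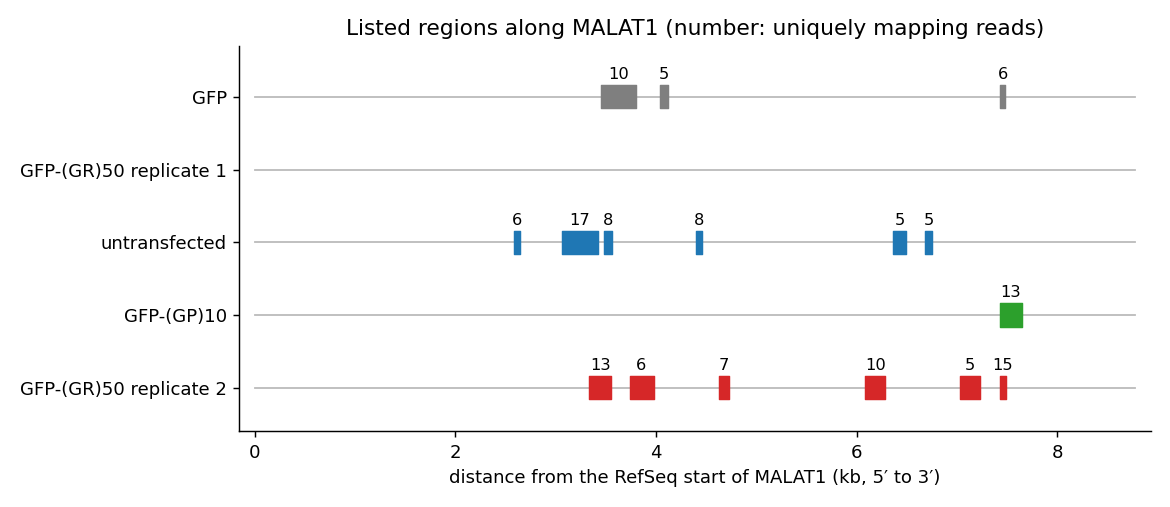
Listed regions along MALAT1 in each of the 5 libraries; the x axis is the distance from the RefSeq start in kb, bars are drawn to scale and numbers are uniquely mapping reads. The lists of GFP, GFP-(GP)10 and GFP-(GR)50 replicate 2 hold a region starting between 7431 and 7433 bp, and untransfected cells have no region there.

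A stretch near the middle of MALAT1 was listed in 3 libraries. GFP had 10 reads in a region from 65501195 to 65501544. Untransfected cells had 17 reads from 65500800 to 65501158 and 8 from 65501222 to 65501298. GFP-(GR)50 replicate 2 had 13 reads from 65501073 to 65501294 and 6 from 65501476 to 65501714. The regions of these lists overlapped but did not start together, with gaps of 27 to 281 bp between the starts of overlapping regions. The 17-read region of untransfected cells overlapped that of GFP-(GR)50 replicate 2 and not that of GFP. GFP, untransfected cells and GFP-(GR)50 replicate 2 thus shared parts of this stretch, while GFP-(GP)10 and GFP-(GR)50 replicate 1 listed no region there.

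A short region towards the 3′ end was listed in 3 libraries with nearly the same start. It ran from 65505171 to 65505216 with 6 reads in GFP, from 65505170 to 65505382 with 13 reads in GFP-(GP)10 and from 65505169 to 65505224 with 15 reads in GFP-(GR)50 replicate 2. The starts lay within 2 bp of each other although the libraries came from both experiments. In GFP-(GR)50 replicate 2 this was the densest MALAT1 region, at 273 reads per kb, against 25.2 to 70.7 in its other 5 regions. The region was also the densest on MALAT1 in GFP, at 133 reads per kb against 28.7 and 64.9. It held 26.8% (15.8 to 40.3) of the MALAT1 reads in GFP-(GR)50 replicate 2, 28.6% (11.3 to 52.2) in GFP and all 13 in GFP-(GP)10.

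As a share of uniquely mapping reads outside rRNA this region took 0.896% (0.478 to 1.53) with GFP-(GP)10, 0.312% (0.175 to 0.515) with GFP-(GR)50 replicate 2, and 0.104% (0.0380 to 0.225) with GFP. These regions were called separately and differ in width, at 212, 55 and 45 bp in that order, and they share 45 bp. With reads spread evenly over each region the shared bases held 0.190%, 0.256% and 0.104%, so the order of GFP-(GP)10 and GFP-(GR)50 replicate 2 turned with the width counted. Untransfected cells, with the most reads outside rRNA, listed no region there. At the shares of the other libraries that list would hold 74.9, 26.1 and 8.66 reads, in the same order, all above the minimum of 5. By all scaled reads the values would be 39.2, 2.52 and 4.42, the last 2 of them under it. The 3 lists with the region are from transfected cells, 1 of them from the other experiment. This pattern was noticed in the data and was not tested. GFP-(GR)50 replicate 1 does not list the region. At the shares of the same 3 libraries replicate 1 would hold 2.02, 0.706 and 0.234 reads by unique reads outside rRNA. By all unique reads the values would be 13.7, 2.61 and 1.54, and by all scaled reads 98.5, 6.32 and 11.1, the latter all above the minimum. Starts shared within 2 bp with another list were found for 18.5% of all regions outside rRNA and tRNA in GFP-(GR)50 replicate 2, 25.2% for GFP-(GP)10 and 25.8% for GFP. Starts shared with 2 other lists, as here, were found for 6.65%, 12.6% and 12.9% in the same order.

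The remaining MALAT1 regions overlapped no region of another list. Untransfected cells had 6 reads from 65500327 to 65500386, 8 from 65502139 to 65502202, 5 from 65504103 to 65504228 and 5 from 65504421 to 65504488. GFP-(GR)50 replicate 2 had 7 reads from 65502364 to 65502463, 10 from 65503824 to 65504023 and 5 from 65504768 to 65504966. GFP had 5 reads from 65501783 to 65501860. All of these had 10 reads or fewer, close to the minimum of the lists. Of the bases listed on MALAT1 in GFP-(GR)50 replicate 2, 15.5% were also listed in untransfected cells, 21.0% in GFP and 5.35% in GFP-(GP)10.

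The span was also cut into 10 equal bins, with the reads of a region spread evenly over its bases. Bin 4 of MALAT1 held 43.6% of its reads in untransfected cells, 7.50% in GFP and 18.6% in GFP-(GR)50 replicate 2. Bin 5 held 10.3%, 63.9% and 15.3% in the same order. Regions cross the edge of these bins, and with each region placed by its midpoint bin 4 held 34.7%, 0% and 23.2% and bin 5 held 16.3%, 71.4% and 10.7%. Bin 9, which holds the short 3′ region, had 28.6% with GFP, 35.7% with GFP-(GR)50 replicate 2, 100% with GFP-(GP)10 and none in untransfected cells. The widths of MALAT1 regions differed as well, with medians of 198.5 bp in GFP-(GR)50 replicate 2, 71.5 bp for untransfected cells, 77 bp for GFP and 212 bp for GFP-(GP)10. These rest on 6, 6, 3 and 1 regions. Over all regions outside rRNA the medians were 52, 51, 60 and 52 bp in the same order.

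Along NEAT1, 5 of the 6 regions lay between 18.1 and 19.4 kb from the RefSeq start of a span of 22.7 kb, a part that only the long isoform contains. The other lay near the 5′ end, in the part shared by both isoforms. It ran from 65423392 to 65423674 and had 7 reads in untransfected cells, which scale to 4.02 reads at the total of unique reads outside rRNA of GFP-(GR)50 replicate 2, under the minimum of 5, and to 7.51 by all unique reads, above it. The 3′ part held 86% of the NEAT1 reads in untransfected cells and all 19 in GFP-(GR)50 replicate 2. The last listed base lay 2253 bp before MIR612, a microRNA gene annotated within NEAT1.

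**Figure D4:**
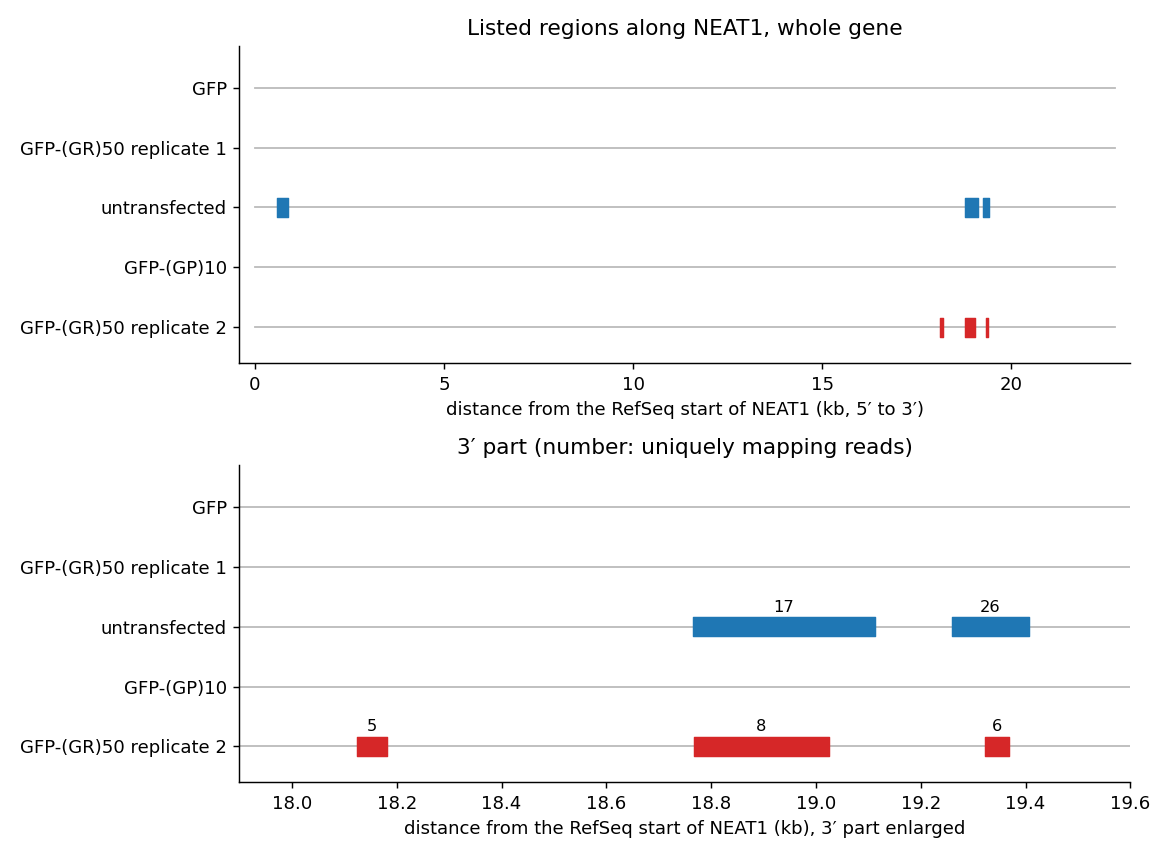
Listed regions along NEAT1 in each of the 5 libraries over the whole gene (top) and enlarged at the 3′ part (bottom); x axes give the distance from the RefSeq start in kb, and numbers are uniquely mapping reads. The regions of untransfected cells with 17 and 26 reads overlap those of GFP-(GR)50 replicate 2 with 8 and 6 reads.

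The 3′ regions of NEAT1 were shared by the libraries of untransfected cells and GFP-(GR)50 replicate 2. One ran from 65441563 to 65441910 with 17 reads in untransfected cells and from 65441565 to 65441823 in GFP-(GR)50 replicate 2, where it had 8 reads, with starts 2 bp apart. This region lies opposite a LINE element. The next ran from 65442057 to 65442205 with 26 reads in untransfected cells, the most on either RNA in any list, and from 65442121 to 65442167 in GFP-(GR)50 replicate 2, with 6 reads. It holds a simple repeat on the same strand. The untransfected reads scale to 9.76 and 14.9 in GFP-(GR)50 replicate 2 by unique reads outside rRNA, and to 18.2 and 27.9 by all unique reads. GFP-(GR)50 replicate 2 also had 5 reads in a SINE element from 65440923 to 65440980, which scale to 8.71 reads in untransfected cells by unique reads outside rRNA and to 4.66 by all unique reads, and no region was listed there. Of the NEAT1 bases listed in GFP-(GR)50 replicate 2, 84.2% were also listed in untransfected cells, and 39.1% the other way. NEAT1 reads recovered with poly-GR thus lay mostly where cells without any GFP protein gave reads as well.

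The genes most like MALAT1 across the 5 libraries were named by the mean absolute difference in log2 share of uniquely mapping reads, with 1 read added, among 62 genes listed in at least 3 libraries. The closest was XIST, the nuclear RNA that coats the inactive X chromosome, with a mean difference of 1.31 log2 units, followed by SRGAP2B at 1.44, OXSR1 at 1.47, RN7SK at 1.56 and DGKI at 1.59. RN7SK, a noncoding RNA that holds P-TEFb inactive, had 58 reads in GFP-(GR)50 replicate 2 and 5 in replicate 1, against 8 with GFP, 7 without transfection and 5 with GFP-(GP)10. XIST had 156 reads in untransfected cells and 52 in GFP-(GR)50 replicate 2 and, with an adjusted exact p of 0.00465, was lower in the latter, a direction unlike that of MALAT1. For NEAT1 the closest of 1218 genes listed in at least 1 library was TEAD1, a transcription factor gene, at 0.24 log2 units. It had 27 reads in untransfected cells and 15 in GFP-(GR)50 replicate 2. TEAD1 was followed by CRYBG2, C12orf57, RNU7-1 and PRRC2B, at 0.50 to 0.53 log2 units. C12orf57 and RNU7-1 had the same counts, 9 and 17. These genes and NEAT1 were unlisted in the other libraries, which add no difference to the mean, so the small values partly reflect shared absence.

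Of 24 other nuclear-retained long noncoding RNAs, 2 had a listed region, ZFAS1 with 6 reads in GFP and MIR17HG with 5 reads in GFP-(GR)50 replicate 2. XIST, listed in all 5 libraries, was not among these 24. Of 20 mRNAs of paraspeckle proteins, 3 were listed. MATR3, which encodes the RNA-binding protein matrin 3, had 11 reads in GFP-(GR)50 replicate 2, 7 with GFP-(GP)10 and 21 without transfection, and DAZAP1 had 7 and 10 reads in GFP-(GR)50 replicates 1 and 2 and no listed region in a control. SMARCA4 had 7 reads in untransfected cells. None of 20 mRNAs of nuclear speckle proteins was listed in any library.

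Other abundant nuclear RNAs were listed more often, and of 20 such small RNAs 13 had a listed region. All 9 that could be tested were called higher in GFP-(GR)50 replicate 2 than in untransfected cells, beside 32.9% of all genes, and 5 of 9 when unlisted genes were entered at 4 reads, beside 3.36%. Among them RMRP, the RNA of RNase MRP, had 8 and 31 reads in GFP-(GR)50 replicates 1 and 2 and 14 with GFP, and RPPH1, the RNA of RNase P, had 25 in GFP-(GR)50 replicate 2 alone. RMRP, RPPH1, RNU4-2, RNU5A-1, RNU5B-1 and SCARNA2 had no region in untransfected cells and were entered at 0 there. Entered so, MIR17HG passed as higher with 5 reads, so their calls followed from being listed. RN7SK and RNU7-1 passed among the 97 genes listed in both libraries, and RNU12 did not (adjusted exact p = 0.0692, Fisher's exact test). Many of these RNAs have near-identical copies in the genome, so their uniquely mapping counts are uncertain. Against GFP, 3 of 9 were called higher in GFP-(GR)50 replicate 1, beside 16.6% of all genes. Against GFP-(GP)10, 4 of 9 were called higher in GFP-(GR)50 replicate 2, beside 3.57% of all genes, and 1 of 10 with the 4-read entry, beside 0.855%. Of these 9 only RN7SK was listed in GFP-(GP)10, and the others were entered at 0 there. Against untransfected cells the median log2 odds ratio of GFP-(GR)50 replicate 2 was 5.20 for this list and -2.66 over all 1049 genes. In both sets most genes are entered at 0 in 1 of the libraries, so the gap between these medians does not measure a difference in level.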

How the data were processed

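The lists were deposited by the authors as regions called separately in each library. The tools named per the submitters' processing notes are featureCounts 2.0.2, bedtools 2.30.0, Novoalign 4.03.03 and UMI-tools 1.1.2, with builds GRCh38.p13 and hg38. What each did, and which caller made the regions, was not given in the sources used here. Per the file headers, one column is a count of reads mapping to one place (in GFP-(GR)50 replicate 2 an expected count, since 6 deposited values are not whole and were rounded). The other deposited column is an expected count that also includes multimapping reads after scaling by the authors. Neither is scaled for depth.

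Reads were summed per gene name over regions without an rRNA name or type. A gene named beside others on a region received all its reads, and gene names other than MALAT1 and NEAT1 were taken as the files give them. Each gene listed in either library was tested by a two-sided Fisher's exact test (Python 3.11.15, SciPy 1.17.1) against other uniquely mapping reads outside rRNA, with unlisted genes at 0 and Benjamini-Hochberg adjustment over all genes; the threshold was 0.05. Odds ratios have Woolf intervals, with 0.5 added where a cell is 0. These scripts were tested on simulated data. Positions were taken from the RefSeq start, and region coordinates were kept as deposited (whether they start at 0 or 1: not given in the sources used here). Named genes were MALAT1 and NEAT1, the 5 most similar to each, and up to 4 members per list with regions in 2 or more libraries; ZFAS1, MIR17HG, SMARCA4 and RPPH1 were added after their values were seen. The members and lists were chosen with earlier results of these data known. Nothing in the labels says that libraries came from separate cultures.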

Additional observations from a re-analysis of the deposited data

How the results depend on the processing

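The MALAT1 difference between GFP-(GR)50 replicate 2 and untransfected cells depended on the denominator. Its log2 odds ratio was 1.00 with uniquely mapping reads outside rRNA, 0.092 with all listed reads (no longer called) and -1.17 with scaled reads, which turned its direction and called it lower (adjusted exact p = 0.000215). NEAT1 in the same comparison was -0.60 and passed as lower with scaled reads (-2.76), all listed reads (-1.50) and regions of at least 10 scaled reads (-6.14). In the last setting every NEAT1 region of GFP-(GR)50 replicate 2 fell under the filter, which left 0 reads against 43 in untransfected cells. Of 179 genes tested there, 158 were called in either direction. Scaled reads without unannotated regions on extra contigs, an alternative chosen after seeing the data, gave 0.73 for MALAT1 and -0.87 for NEAT1. Against GFP-(GP)10, MALAT1 was 0.38 and turned to -1.26 with scaled reads, called lower (adjusted exact p = 0.0314), to -0.50 with all listed reads and -0.80 with regions of at least 10 scaled reads. NEAT1 there lost its call with scaled reads (1.92), all listed reads (2.69) and unlisted genes entered at 4 reads (0.52). In GFP-(GP)10 against untransfected cells, MALAT1 passed with regions of at least 10 scaled reads (2.31) and NEAT1 lost its call with the 4-read entry (-1.12). In experiment 1, MALAT1 was -0.75 and became -3.47 with all listed reads and 2.31 with the 4-read entry. With regions of at least 10 scaled reads it was 1.88 and not called, with 0 of 67 reads in GFP-(GR)50 replicate 1. GFP had 10 of 5224 under that setting, so the positive sign came from the 0.5 added to a cell of 0. Why the results moved with the processing was otherwise not tested.

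Counts of called genes moved as well. The number of genes tested moved with them. In experiment 1, 45 of 211 genes were called. Scaled reads gave 111 of 268, scaled reads without contigs 94 of 268, all listed reads 69 of 211 and the 4-read entry 221 of 254. Genes listed in both gave 11 of 16, regions of at least 10 scaled reads 9 of 101 and regions of a single gene name 23 of 114. Against untransfected cells 415 of 1049 were called. Scaled reads gave 733 of 1091, all listed reads 742 of 1049 and the 4-read entry 38 of 1073. Genes listed in both gave 14 of 97. Regions of at least 10 scaled reads gave 158 of 179, a smaller count but a larger share. Against GFP-(GP)10 the count was 146 of 561, and 68 of 585, 24 of 49 and 31 of 98 under the last 3 of these. In GFP-(GP)10 against untransfected cells it was 122 of 798. Genes listed in both gave 29 of 53 there, and regions of at least 10 scaled reads 21 of 121.

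No paired analysis was possible because each control is 1 library and the GFP-(GR)50 replicates lie in different experiments. Without GFP-(GR)50 replicate 1 the level of each RNA is that of replicate 2, since replicate 1 lists no region of either. The minimum of 5 reads per region limits what lists with few unique reads outside rRNA, GFP-(GR)50 replicate 1 and GFP-(GP)10, can show. How many reads a region would have in another list, by totals other than unique reads outside rRNA, was added after seeing the data.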
